A study of Mus musculus with 6 samples.

Results

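The Popeye genes Popdc3, Bves and Popdc2 were described in lists of chromatin regions that bound Setdb1 or carried H3K9me3 in C2C12, an established line of mouse myoblasts that fuses into myotubes when serum is lowered. They were 3 of 22350 protein-coding genes annotated on the 20 chromosomes of the mouse genome mm9. The genes were chosen by name and because a group of Setdb1 sites lies over Popdc3 and Bves, and each was taken with 100 kb on either side of its body. The Setdb1 sites below therefore describe the choice, and no test was run on them. These windows held 5 of the 1191 Setdb1 sites, 15 of the 80480 narrow H3K9me3 peaks and 8 of the 23268 broad H3K9me3 islands. Setdb1, an enzyme that methylates histone H3 on lysine 9, and H3K9me3, that lysine in its trimethylated and usually silent form, were each immunoprecipitated from untreated C2C12 chromatin and sequenced, with an input library for each antibody. The groups used were Setdb1 and H3K9me3 with their inputs, each labelled as 1 library. The Setdb1 list does not name the library it was made from, and by the study's methods it came from the better enriched of repeated experiments, done in proliferating cells. The libraries Setdb1+DMSO and Setdb1+Wnt3a were not analysed here. With 1 list per antibody there was no replicate spread, and the lists hold no expression values, so the identity of the cells was not checked against muscle markers.

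Popeye proteins are membrane proteins of heart and skeletal muscle whose cytoplasmic Popeye domain binds cyclic AMP (cAMP). They bind the potassium channel Kcnk2 and the caveolin Cav3 among other partners, and in humans variants in each of these genes have been linked to muscle or heart rhythm disease. Setdb1 places H3K9me3, and in mouse embryonic stem cells it is best known for keeping retroviral repeats silent. A broad H3K9me3 domain over a gene usually goes with low transcription, which the lists do not measure.

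Popdc3 and Bves lie one after the other on chromosome 10, both transcribed on the plus strand. Popdc3 (ENSMUSG00000019848.7) covers chr10:45009111-45038256, has 4 exons and 2 annotated transcripts, and ends 17.3 kb before Bves begins. Bves (ENSMUSG00000071317.3), also called Popdc1, covers chr10:45055568-45089514 and has 8 exons in 1 transcript. Popdc2 (ENSMUSG00000022803.6) stands alone on another chromosome at chr16:38362295-38378302, with 4 exons and 5 transcripts. The 4 Setdb1 sites on chromosome 10 lay inside the bodies of Popdc3 and Bves, 2 in each, and are called sites 1 to 4 here in genome order. The summit of site 5 lay 66.3 kb beyond the end of Popdc2. Popdc3 and Bves each had 4 sites in their windows, the same 4, since the windows overlap. Of all protein-coding genes, 15.5% had a Setdb1 site within 100 kb of the body and 0.161% had 4 or more, and 0.152% had at least 2 sites in the body. Among the protein-coding genes of 15 to 60 kb, a range set around these genes after their values were seen, 7 genes or 0.0965% had at least 2 sites in the body. These were Popdc3, Bves, the phosphatase gene Ptpdc1 and the zinc finger genes Zfp335, Zfp697, Zfp316 and Zfp182. Popdc3 and Bves formed the only neighbouring pair of non-overlapping protein-coding genes in the list with at least 2 sites in each body. This criterion was set after the sites were seen, and the genes were chosen by these same sites, so it describes the choice. The pair did not meet this count when sites outside H3K9me3 were left out, because site 1 then fell away.

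**Figure D1:**
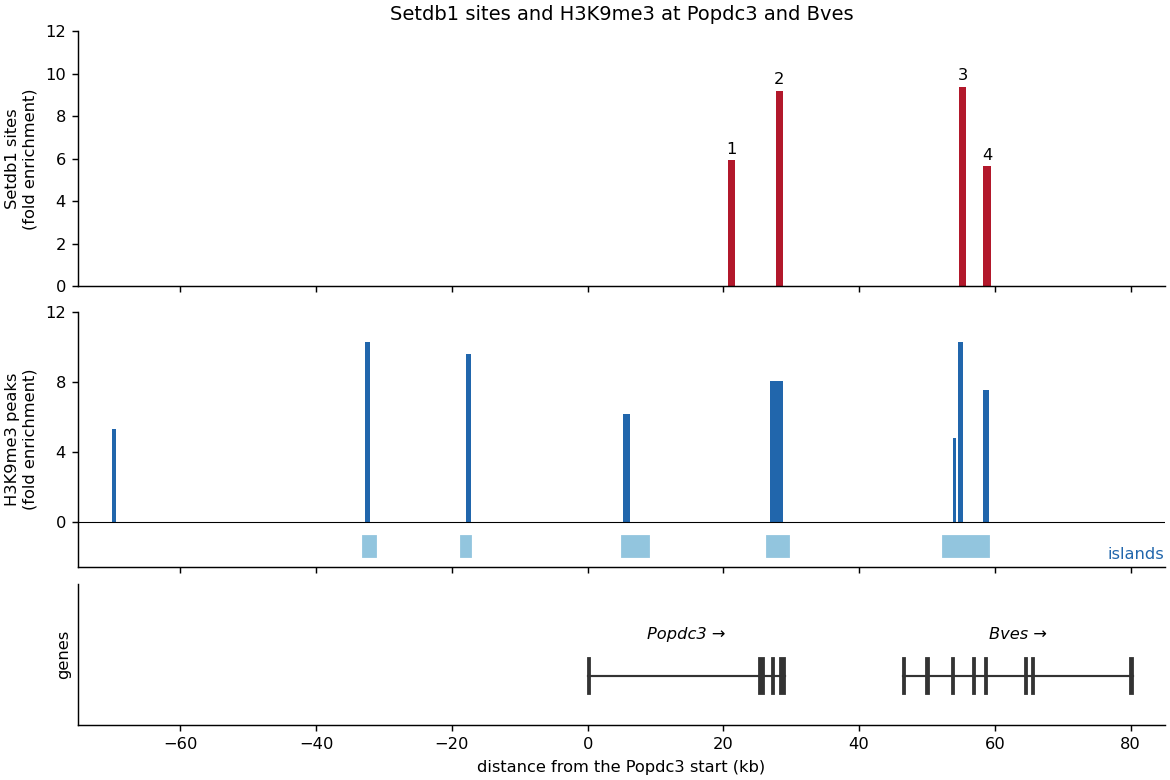
Setdb1 sites (top, red, fold enrichment over input, numbered 1 to 4 and drawn at the summit with a fixed width), H3K9me3 peaks (middle, dark blue, fold enrichment; light blue boxes are islands) and the exons of Popdc3 and Bves (bottom, arrows give the direction of transcription), by distance from the Popdc3 start in kb. Sites 2, 3 and 4 stand over H3K9me3 peaks and islands, site 1 does not, and no region lies at either gene start.

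The 4 sites of chromosome 10 were spread over 38.5 kb, from 45029869 to 45068326. Site 1 and site 2 were 6.47 kb apart, site 3 and site 4 were 3.12 kb apart, and 26.5 kb separated the sites of Popdc3 from those of Bves. The distances to the next sites on either side follow, without the usual spacing of the list, which is not given here. The preceding Setdb1 site lay 252 kb away, nearest to the start of Prep, at 6.71-fold. The following site lay 292 kb away, nearest to Hace1, at 4.78-fold. When sites were joined across gaps of at most 50 kb, the whole list gave 12 groups of 3 or more sites. Of these, 4 groups had 4 or more sites, and the group over Popdc3 and Bves had the shortest span of the 4. The Popdc2 window held 1 site, and the nearest sites outside it were 292 kb upstream and 4212 kb downstream of the gene.

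Site 1 was at chr10:45029869-45030541, in intron 1 of Popdc3, with its summit 21.3 kb from the gene start. The nearest annotated start, 21.1 kb away, was that of Gm15934, a transcript on the opposite strand. Site 1 held 27 tags (unique reads of the Setdb1 library, 95% exact Poisson interval 17.8 to 39.3, counting error only) and was 5.92-fold enriched over input. This was among the weakest calls of the list, at rank 1177 of 1191 by score, and its false discovery rate of 1% was the highest value in the list, shared by 11 sites. It was also the site without H3K9me3, with the nearest peak 5.47 kb and the nearest island 5.06 kb away. The 201 bp around its summit, shown because they are the only window of the 5 with no word found elsewhere, were AT-rich with 35.8% GC against a median of 46.8% over all Setdb1 sites. Every 24-bp word of this window occurred once in the genome.
Site 1, chr10:45030261-45030461, plus strand: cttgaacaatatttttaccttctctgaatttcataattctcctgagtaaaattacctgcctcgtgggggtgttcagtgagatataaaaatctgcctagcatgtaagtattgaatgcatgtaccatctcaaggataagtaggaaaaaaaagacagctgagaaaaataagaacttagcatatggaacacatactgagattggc

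Site 2 was at chr10:45037016-45037549, in intron 3 of Popdc3, and ended 45 bp inside the last exon. It held 42 tags (30.3 to 56.8) at 9.21-fold, rank 252 of 1191 by fold enrichment. The whole site lay in H3K9me3. The overlapping H3K9me3 peak, chr10:45036016-45037891, held 168 tags at 8.07-fold, which put it at the 99.5th percentile of all H3K9me3 peaks by tags, and over the 774 Setdb1 sites that touch a peak the median was 61 tags. A 3.20 kb island ran from 45035601 past the end of Popdc3 to 45038800. The H3K9me3 summit was 829 bp from the Setdb1 summit, against a median of 179 bp, and the highest point of the H3K9me3 peak lay upstream of the site. At sites 3, 4 and 5 this distance was 291, 59 and 785 bp. It was under 300 bp at 65.6% of the Setdb1 sites that touch a peak. The window of site 2 is shown with capitals for bases covered by a 24-bp word with more than 10 copies in the genome. Such words were 55 of the 178 words of the window, or 30.9%, covered 165 of its 201 bases and reached 440 copies, and 37.6% of the words were single-copy.
Site 2, chr10:45037238-45037438, plus strand: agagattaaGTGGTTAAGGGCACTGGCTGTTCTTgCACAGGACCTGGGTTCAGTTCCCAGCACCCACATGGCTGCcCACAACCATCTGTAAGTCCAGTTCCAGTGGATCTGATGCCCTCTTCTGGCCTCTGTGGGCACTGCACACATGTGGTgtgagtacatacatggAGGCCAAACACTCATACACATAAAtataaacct

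Site 3 was at chr10:45064076-45064601, in intron 3 of Bves, with its summit 8.81 kb after the gene start. It held 37 tags (26.1 to 51.0) at 9.39-fold, rank 215, the highest enrichment on this stretch of chromosome 10. It lay wholly in H3K9me3, over the peak chr10:45063663-45064459 with 66 tags at 10.3-fold. Site 4 was at chr10:45067720-45068326, in intron 5 of Bves. It held 33 tags (22.7 to 46.3) at 5.65-fold with a false discovery rate of 0.72%, and 79.2% of it lay in H3K9me3, over the peak chr10:45067376-45068175 with 44 tags at 7.56-fold. Sites 3 and 4 shared a single island of 6.80 kb, chr10:45061401-45068200, the longest in the windows. The island held exons 3, 4 and 5 of Bves. By fold enrichment the 4 sites thus fell into a weaker and a stronger one in each gene. The tag intervals of all 4 overlapped, so their order by reads was not resolved at this depth, and with a minimum of 6-fold sites 2 and 3 were left.

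The windows of sites 2 and 3 resembled each other. In a local alignment 103 of 138 columns, or 74.6%, were identical on the same strand, and the stretch spanned both summits, from 89 bp before to 46 bp after that of site 2 and from 83 bp before to 53 bp after that of site 3. No other pair among the 10 pairs of windows reached 100 columns with 65% identity, the limits set after the windows had been seen. Both stretches are shown because they link the stronger site of Popdc3 to that of Bves, with capitals for bases identical in the other.
Site 2 stretch, chr10:45037249-45037384, plus strand: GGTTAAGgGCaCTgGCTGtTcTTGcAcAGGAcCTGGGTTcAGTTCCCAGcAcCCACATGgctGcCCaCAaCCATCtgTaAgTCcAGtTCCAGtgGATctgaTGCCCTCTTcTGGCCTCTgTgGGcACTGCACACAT
Site 3 stretch, chr10:45064291-45064427, plus strand: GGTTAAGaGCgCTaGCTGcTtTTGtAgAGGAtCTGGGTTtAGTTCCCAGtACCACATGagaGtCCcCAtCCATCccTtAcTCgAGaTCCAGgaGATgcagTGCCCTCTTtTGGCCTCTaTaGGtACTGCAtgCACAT
Site 4 also held such a stretch, outside its summit window, 82 to 271 bp after the summit. Here 131 of 194 columns, or 67.5%, were identical to the window of site 2, again on the plus strand, and capitals mark those bases.
Site 4 stretch, chr10:45068038-45068227, plus strand: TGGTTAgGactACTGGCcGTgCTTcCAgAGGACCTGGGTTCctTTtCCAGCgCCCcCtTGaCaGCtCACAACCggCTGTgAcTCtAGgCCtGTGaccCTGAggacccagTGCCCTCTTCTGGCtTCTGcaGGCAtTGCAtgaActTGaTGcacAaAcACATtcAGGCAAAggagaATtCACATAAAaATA
The 3 chromosome 10 sites in H3K9me3 thus each held a related sequence, and neither site 1 nor site 5 held one that reached these limits.

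The related sequence was not restricted to the Popeye genes. Of the 1190 other Setdb1 sites, 134 or 11.3% aligned to the window of site 2 by the same limits, on 19 chromosomes and about equally on both strands (69 in the same and 65 in the opposite direction). Their identity ran from 65.2% to 84.3%, and site 3 was at rank 61 of these 134. The share was 14.4% of the other 819 sites in H3K9me3 and 4.31% of the 371 sites outside, and 1.77% of 2378 windows taken 5 kb to either side of the sites. Taken over whole sites, 298 of the 1190 other Setdb1 sites held such a stretch, 30.9% of those in H3K9me3 and 12.1% of those outside, against 7.57% of stretches of the same lengths 5 kb to the side. The window of site 3 gave the same order, with 10.9% in H3K9me3, 2.70% outside and 0.589% to the side. The windows of sites 1, 4 and 5 aligned to 1, 0 and 2 other sites. Among the H3K9me3 peaks, 12.1% of the 803 peaks with a Setdb1 site and 3.13% of the 79677 peaks without one aligned to site 2 around their summit. These shares are descriptions, as copies of 1 sequence are not independent and the query was picked by its Setdb1 signal. No repeat annotation was used, and the sequence is given no family name. Only uniquely aligned reads entered the lists, so identical copies are not represented.

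**Figure D2:**
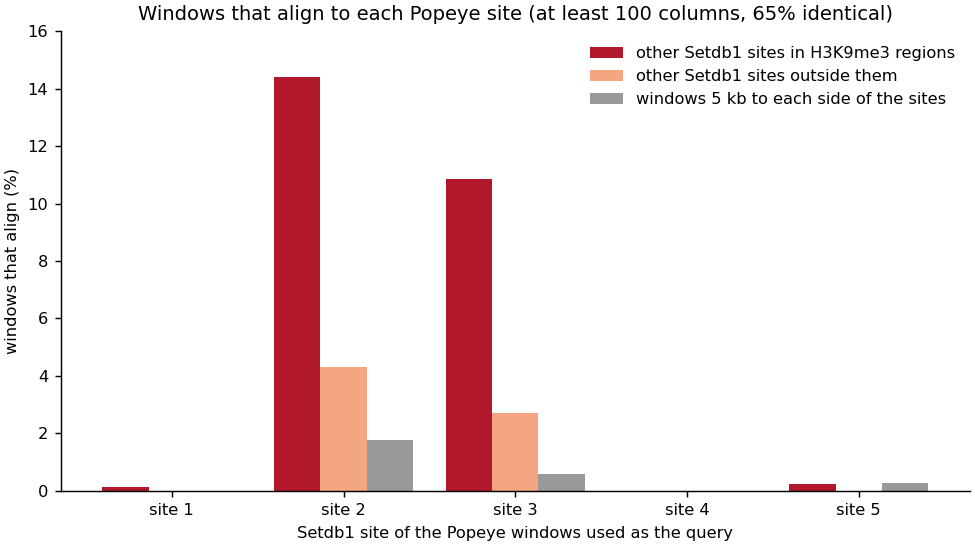
Percent of windows (vertical axis) that aligned over at least 100 columns at 65% identity to each of the 5 Popeye windows (horizontal axis), for other Setdb1 sites in H3K9me3 regions (red), other Setdb1 sites outside them (orange) and windows 5 kb to each side of all sites (grey). Sites 2 and 3 reach 14.4% and 10.9% in H3K9me3, and the other 3 windows stay at or below 0.252%.

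The body of Popdc2 held neither a Setdb1 site nor an H3K9me3 region. Popdc3 and Bves were chosen by a group of Setdb1 sites and Popdc2 was not, so this contrast describes the choice. The H3K9me3 cover of the body was 0 at 15665 of the 22350 protein-coding genes. Site 5, chr16:38444164-38444853, was intergenic, with 51 tags (38.0 to 67.1) at 10.1-fold, the strongest of the 5 by both measures. Its summit was 66.3 kb past the end of Popdc2, and the start nearest to the summit, 1.21 kb away, was that of Gm17497, a short annotated protein-coding gene. Adprh, which encodes ADP-ribosylarginine hydrolase, and D930030I03Rik also start within 10 kb. The site lay wholly in H3K9me3, over the peak chr16:38444203-38445640 with 83 tags at 9.62-fold, in a 5.40 kb island that also reached into Gm17497 and the end of Adprh, where a second peak had 40 tags at 8.25-fold. Site 5 was thus nearer to Gm17497 and Adprh than to Popdc2. The window of site 5 is shown with the same capitals as that of site 2. Repeated words were 56 of its 178 words, or 31.5%, covered 79 of its 201 bases and reached 1019 copies, all upstream of the summit. The words over the summit itself had at most 2 copies.
Site 5, chr16:38444458-38444658, plus strand: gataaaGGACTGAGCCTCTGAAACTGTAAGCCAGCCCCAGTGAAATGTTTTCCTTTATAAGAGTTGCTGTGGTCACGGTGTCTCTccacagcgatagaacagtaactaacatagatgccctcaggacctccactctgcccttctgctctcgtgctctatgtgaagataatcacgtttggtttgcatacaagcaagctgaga
Although both held repeated words, sites 2 and 5 were not alike, and their best alignment had 20 columns.

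**Figure D3:**
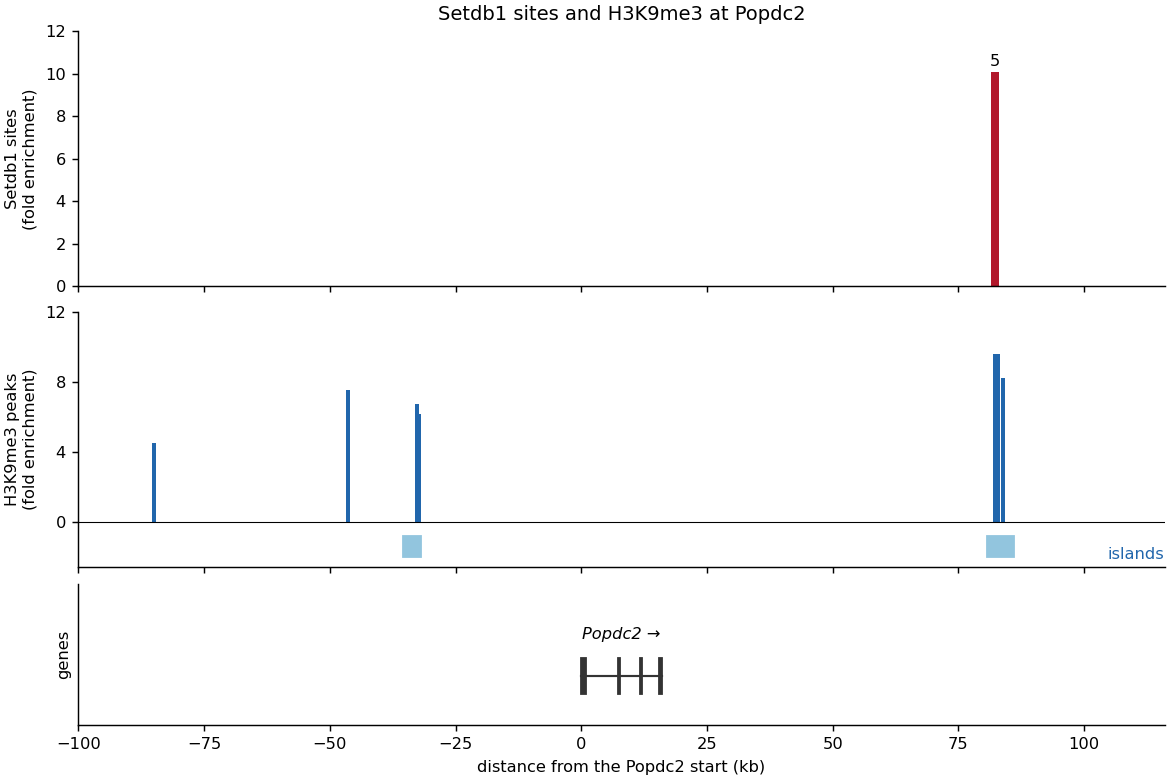
The same 3 tracks for Popdc2, by distance from the gene start in kb, with fold enrichment over input on the vertical axes. The Setdb1 site (number 5) and the strongest H3K9me3 peaks lie over 80 kb downstream, 4 weaker H3K9me3 peaks lie upstream, and the gene body is empty.

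**Figure D4:**
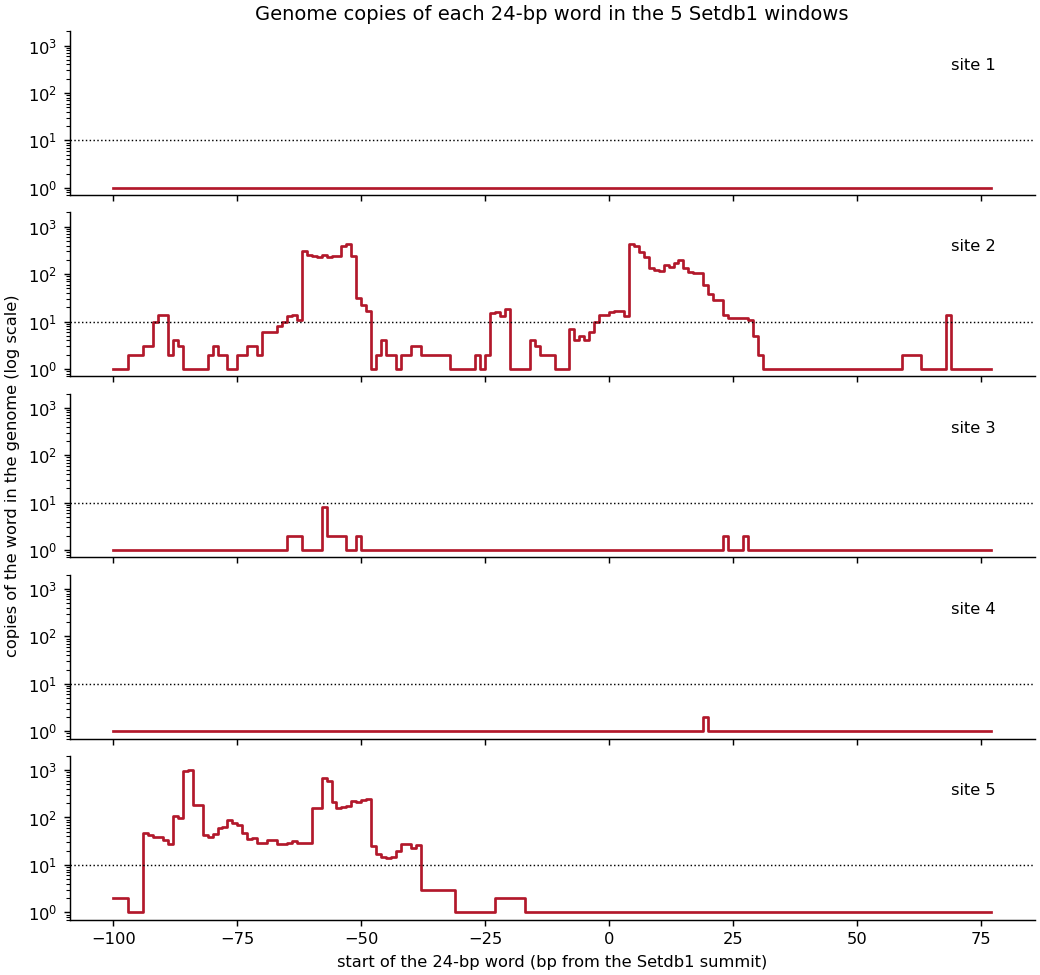
Copies in the genome, on a log scale, of each 24-bp word in the windows of the 5 sites, by position from the Setdb1 summit in bp; the dotted line marks 10 copies. Site 2 and site 5 exceed the line, with up to 440 and 1019 copies, and the words of sites 1, 3 and 4 stay at 8 copies or fewer.

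Repeated words were found in 50.0% of all Setdb1 windows, in 58.2% of those in H3K9me3 and in 32.1% of those outside, beside 2 of the 5 Popeye windows. The count takes identical words only and misses diverged copies. The window of site 3 held no repeated word, yet it aligned to 99 other Setdb1 sites. All 4 sites on chromosome 10 had their summit in an intron, as did 36.9% of all Setdb1 sites. Of the 5 sites, 4 lay in H3K9me3, beside 68.8% of the whole list, and none was within 1 kb of an annotated start, beside 17.6%. In fold enrichment sites 2, 3 and 5 were above the median of 7.32 and sites 1 and 4 below it. In tags sites 2, 3 and 5 were above the median of 33, site 4 was at it and site 1 below. Among 5 motifs searched on both strands, the E-box CANNTG, bound by myogenic factors such as MyoD, occurred 2, 4, 2, 1 and 0 times in sites 1 to 5, and 68.5% of all Setdb1 windows held at least 1. In site 2, 2 of the 4 matches overlap each other. The palindromic E-box CACGTG, which is one form of CANNTG, the E2F6-type motif GCGGGAA, the motif ACTACAA and the cAMP response element TGACGTCA were not matched in these windows. They were found in 4.87%, 2.18%, 1.68% and 0.168% of all Setdb1 windows.

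**Figure D5:**
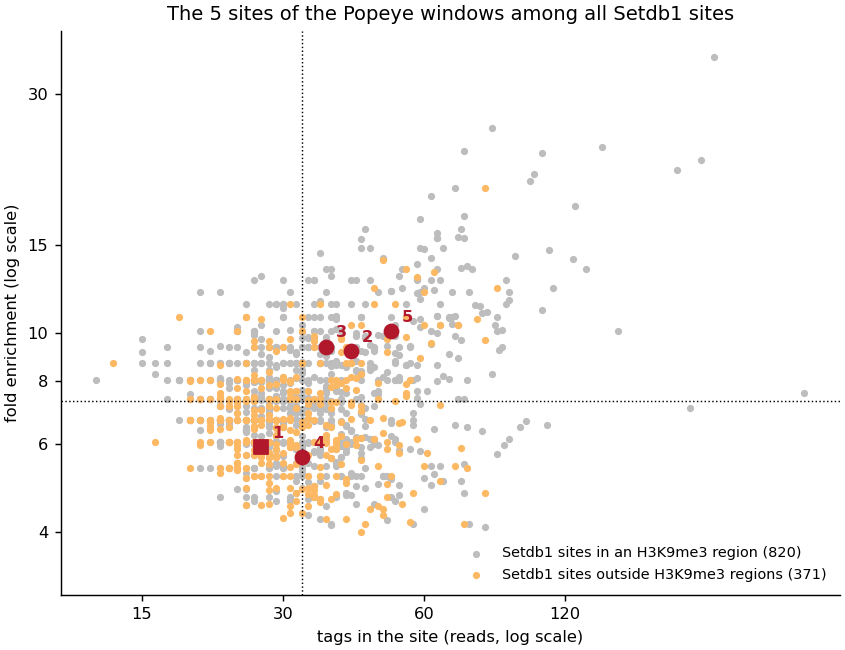
Fold enrichment against tags, both on log scales, for all 1191 Setdb1 sites (grey in H3K9me3 regions, 820; orange outside, 371), with the 5 Popeye sites in red and numbered; dotted lines mark the medians of 33 tags and 7.32-fold. Site 1 (square, no H3K9me3) and site 4 lie below the median fold, and sites 2, 3 and 5 above it.

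H3K9me3 covered 22.8% of the body of Popdc3, 20.0% of that of Bves and none of that of Popdc2. An H3K9me3 region of any length was present in the body of 29.9% of protein-coding genes. At 15665 of the 22350 genes the cover was 0, and the 90th percentile was 12.8%, which Popdc3 and Bves both exceeded. Both were chosen by their Setdb1 sites, and 68.8% of all Setdb1 sites lay in H3K9me3. The island of sites 3 and 4 made up all of the cover of Bves. Popdc3 held the island of site 2 and 1 island without a Setdb1 site. High cover thus goes in part with the choice, and nothing more is read from this rank. With 100 kb on each side the cover was 8.59%, 7.52% and 4.58% for Popdc3, Bves and Popdc2, and the median gene had 2.84%. No H3K9me3 region and no Setdb1 site came within 1 kb of any annotated start of the 3 genes. An H3K9me3 region lay at a start in 11.7% of protein-coding genes, so its absence there is the usual case. The nearest island began 5.09 kb downstream of the start of Popdc3 and 5.83 kb downstream of that of Bves, and ended 31.9 kb upstream of that of Popdc2. The shorter Popdc3 transcript, Popdc3-002, starts 4.99 kb before the island. This first island of Popdc3, 4.00 kb long from 45014201, held 2 small peaks of 16 and 15 tags, both at 6.18-fold, in intron 1 and had no Setdb1 site. The starts themselves differed in base composition. From 250 bp before to 50 bp after the start, Bves had 77% GC and a CpG ratio (observed over expected) of 1.01, Popdc3 had 53% and 0.50, and Popdc2 had 55.3% and 0.23. The medians over protein-coding genes were 55.3% and 0.53, and Bves was at the 97.3rd percentile of GC.

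Outside the gene bodies, H3K9me3 without Setdb1 was found on both chromosomes. The peak with the highest fold in the Popdc3 and Bves windows, chr10:44976356-44977003, had 38 tags at 10.31-fold. It lay in intergenic sequence 32.1 kb upstream of Popdc3. The peak at site 3 was nearly equal in fold, at 10.27, and held more tags, 66. A second intergenic peak, chr10:44991160-44991966, had 45 tags at 9.62-fold. Upstream of Popdc2, 3 peaks lay in introns of 4932425I24Rik, at 7.56-fold, 6.74-fold and 6.18-fold, and 1 in an intron of Nr1i2, the gene of the pregnane X receptor, at 4.49-fold. Of the 15 peaks of the windows 11 had no Setdb1 site, as did 79677 of the 80480 peaks of the whole list. H3K9me3 peaks without Setdb1 were thus the rule and not a trait of these windows, which were chosen by Setdb1 sites. Over their whole length 2 of these 11 held a stretch that aligned to the window of site 2. Both were upstream of Popdc2, at chr16:38315822-38316013 with 69.2% and chr16:38329551-38329707 with 65.1% identity. Whole peaks are longer than the windows used above, and the share over all whole peaks was not computed, so nothing is read from this count.

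Within the genes, H3K9me3 covered exons 3 and 4 of the 4 exons of Popdc3, exons 3 to 5 of the 8 exons of Bves and no exon of Popdc2. The exon that all 3 genes have in common allowed a direct comparison. An internal coding exon of 109 bp, the only exon length found in all 3, is exon 3 of Popdc3, exon 5 of Bves and exon 2 of Popdc2. It follows 485, 539 and 491 coding bases and enters the reading frame at the same place in the codon in each gene. In Popdc3 (chr10:45036237-45036345) and Bves (chr10:45067591-45067699) it lay wholly inside an H3K9me3 peak, of 8.07-fold and 7.56-fold. Downstream of it a Setdb1 site followed in the next intron, site 2 after 671 bp in Popdc3 and site 4 after 21 bp in Bves. In Popdc2 (chr16:38369570-38369678) the exon was in no H3K9me3 region, and the next Setdb1 site was 74.5 kb away. The exons are shown with capitals for the 46 bases, 42.2%, that are the same in all 3.
Popdc3 exon 3: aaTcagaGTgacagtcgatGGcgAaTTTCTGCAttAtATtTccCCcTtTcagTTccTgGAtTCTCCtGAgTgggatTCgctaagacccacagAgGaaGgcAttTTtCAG
Bves exon 5: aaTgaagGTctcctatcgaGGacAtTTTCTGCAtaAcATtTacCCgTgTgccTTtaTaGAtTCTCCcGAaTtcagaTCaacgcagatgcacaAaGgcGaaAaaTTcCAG
Popdc2 exon 2: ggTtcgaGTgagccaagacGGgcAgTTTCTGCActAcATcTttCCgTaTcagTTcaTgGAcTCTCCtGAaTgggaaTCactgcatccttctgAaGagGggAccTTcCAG
By sequence Popdc3 and Popdc2 were the closest pair here with 65.1% identical bases, followed by Bves and Popdc2 with 55.0% and Popdc3 and Bves with 49.5%. The 2 exons with H3K9me3 were the least alike pair in their bases. The H3K9me3 regions are wider than the exon, and a relation between exon sequence and the mark was not tested. The same islands also covered exon 4 of Popdc3 and exons 3 and 4 of Bves. Popdc3 and Bves were chosen by Setdb1 sites in their bodies. The share of all exons in H3K9me3 or near a Setdb1 site is not given, so nothing is read from this parallel.

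Partners of the Popeye proteins and other genes of cAMP signalling were described from a list of 24 genes. Of these, 5 had a Setdb1 site within 100 kb, beside 15.5% of all protein-coding genes, 2 of the 5 with a site in H3K9me3. None of the 24 had a site in the body. The share of all genes with such a site is not given here, so nothing is read from this. Among the 9 binding partners, Pde4a, a cAMP phosphodiesterase, had the closest site, 6.74-fold with 30 tags, which ended 0.142 kb upstream of the gene. Ndrg4, a partner known from epicardial cells, had a site of 5.18-fold with 36 tags 6.78 kb away. Neither site was in H3K9me3. Among the 12 cAMP effectors, the pacemaker channel gene Hcn2 had 2 sites within 100 kb, both in H3K9me3. The site described here was 10.1-fold with 35 tags, 3.09 kb from the Hcn2 body and at the start of Polrmt. The exchange factor gene Rapgef3 also had 2 sites within 100 kb, 1 of them in H3K9me3. That site was 9.87-fold and lay 98.1 kb away, in an intron of Vdr. Of the 3 phosphodiesterases of the list, Pde4c had a site of 7.49-fold 80.9 kb away, outside H3K9me3. H3K9me3 itself was in the body of 11 of the 24 genes, beside 29.9% of all protein-coding genes, and within 1 kb of a start in 6, beside 11.7%. Picked after their values were seen, Cav3 had 57.6% of its body in a single 13.8 kb island that covered its start, and Kcnk2 had 21.0% in 4 islands with a 4.81-fold peak 0.17 kb from a start. Both encode partners named above, and neither had a Setdb1 site in its window. Of all 9 partners, 3 had H3K9me3 within 1 kb of a start, the third being Vamp3.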

How the data were processed

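Chromatin immunoprecipitation and sequencing were done by the authors in C2C12 myoblasts. Reads were aligned to mm9 with Bowtie 0.12.7 (submitters' processing notes and the study's methods), unique alignments were kept and duplicates removed, and peaks were called over input with MACS 1.4 and islands with SICER. Sequence with many identical copies is therefore under-represented. The deposited tags are counts of reads per peak, not scaled for depth. The fold enrichment deposited is a ratio to the MACS background, the deposited score is the MACS p on a negative log10 scale, times 10, and their false discovery rates were deposited in percent. Library totals were not used here. The Setdb1 list had a lowest fold of 4.01 and a highest false discovery rate of 1%.

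H3K9me3 regions were the union of peaks and islands, and overlap meant at least 1 bp. Gene models came from GENCODE on NCBIM37, which is mm9. Windows were 100 bp on each side of a summit. Words of 24 bp were counted in the genome on both strands, because the genome carried no repeat mask. Local alignment scored 1 for a match, -1 for a mismatch, -3 to open and -1 to extend a gap. Word counts, alignment limits, the 5 kb shift, the 15 to 60 kb range and the count of neighbouring gene pairs were chosen after the data were seen. The genes and all lists were chosen with earlier results of these data known. The genes named by rule are the members, those at or nearest to the sites, and listed partners with a site. Cav3, Kcnk2, Vamp3, Nr1i2, 4932425I24Rik, the genes of 15 to 60 kb and the genes at the sites before and after the chromosome 10 group were named after their values were seen. Functions were checked on simulated data. Python 3.11.15, NumPy 2.4.6, pandas 2.3.3, SciPy 1.17.1, Biopython 1.88 and Matplotlib 3.10.9 were used.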

Additional observations from a re-analysis of the deposited data

How the results depend on the processing

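Of 74 alternative values 46 stayed within 1.5 times the reported one, among them all 21 counts of sites in H3K9me3. With 20 kb or 10 kb on each side Popdc3 had 2 sites, and Bves had 2 with 10 kb. At a minimum of 6-fold or 8-fold each had 2 sites. Popdc2 had 0 sites with 50 kb, 20 kb or 10 kb, so no share of genes could be formed there at 50 and 10 kb, and with sites in H3K9me3 only 10.2% of genes had as many sites. For Popdc3 and for Bves the share of genes with as many sites was 0.0492% with 50 kb and 0.264% with 10 kb. Peaks alone covered 2.74%, 2.56% and 1.87% of the windows of Popdc3, Bves and Popdc2, the gene bodies alone were covered to 22.8%, 20.0% and 0%, and the Popdc3 window of 50 kb to 13.6%. Within 5 kb of a start Popdc3 had 1 H3K9me3 region, and 1 of the 5 sites had its summit within 5 kb of a start. Gaps of at most 20 kb or 10 kb left 2 sites in the chromosome 10 group. Partner and effector genes with a site numbered 3 within 10 kb and 2 with sites in H3K9me3 only. Added after the data were seen, limits of 120 columns, 70% identity and 80 columns gave 8.40%, 9.24% and 14.5% of other sites aligned to site 2. No paired analysis was possible because no group had more than 1 library. The tags of the 5 sites, 27 to 51, limit their order.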
